A study of Mus musculus with 22 samples.

Results

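The Gnas imprinted cluster was followed across the genomes of 22 mouse forebrains, from 5000 bp upstream to 1000 bp past the genes Gnas and Nespas (GRCm38/mm10, chr2:174279320-174347744). Its members were the CpGs of this stretch that were covered by at least 10 reads on a strand. Of the 1511 CpGs in the reference sequence of the cluster, 588 reached this coverage in at least 1 forebrain, 171 reached it in at least 5 forebrains of each condition and 35 reached it in all 22, against 2095436, 592579 and 164017 CpGs on the autosomes as a whole.

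The forebrains came from wild-type C57BL/6 embryos collected at E10.5 without visible malformation, and DNA methylation was measured by reduced representation bisulfite sequencing (RRBS), which reads the ends of fragments cut by the enzyme MspI at CCGG. The 6 control embryos came from dams injected with saline at E2.5, and the 16 EtOH-exposed embryos from dams that received 2 doses of 2.5 g/kg ethanol 2 h apart on that day. According to the methods, the control embryos came from 3 litters and the EtOH-exposed embryos from 6. The labels give neither litter nor sex, so littermates were treated as separate samples. The p values take no account of litter and can therefore be too small. A whole forebrain holds many cell types and both parental alleles, and the reads were not assigned to either. Neither allele-specific methylation nor expression was analysed here.

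Gnas is a gene with several alternative first exons that are spliced onto shared downstream exons, so that 1 locus gives several products. Gnas exon 1 starts the transcript of the stimulatory G protein alpha subunit, which couples hormone and neurotransmitter receptors to adenylyl cyclase. The Gnasxl promoter makes a longer form of that subunit from the paternal allele, and Nesp makes a neuroendocrine secretory protein from the maternal allele. Nespas runs antisense to Nesp from the paternal allele, and exon 1A starts a non-coding transcript, also paternal. The Nespas and Gnasxl promoters and exon 1A carry methylation on the maternal allele that is set in the oocyte, Nesp becomes methylated on the paternal allele after fertilization, and Gnas exon 1 is free of methylation on both alleles. At imprinted promoters, methylated and unmethylated copies are therefore expected side by side in a normal cell.

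In the RefSeq annotation the Nesp transcript NM_022000 starts at position 174284320 of chromosome 2, Nespas (NR_002846, listed there as Gnasas1, on the minus strand) at 174295436, Gnasxl (NM_010309) at 174297859, exon 1A (NR_003258) at 174327749 and Gnas exon 1 (NM_201616) at 174330006. Promoter windows ran 1000 bp to both sides of a start, with Nespas and Gnasxl in 1 window. The sequences below are reference stretches, plus strand, of the 100 bp tiles (fixed, adjoining windows) that had the most reads or the largest difference between conditions at Nesp and Gnasxl, with each CpG in capitals.

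Nesp, chr2:174284801-174284900, in the Nesp coding exon: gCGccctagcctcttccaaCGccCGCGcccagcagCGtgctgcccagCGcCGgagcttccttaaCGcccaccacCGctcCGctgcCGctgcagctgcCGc

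Gnasxl, chr2:174298001-174298100, coding exon, most reads: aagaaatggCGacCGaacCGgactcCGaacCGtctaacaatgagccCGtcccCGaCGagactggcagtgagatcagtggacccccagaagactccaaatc

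Gnasxl, chr2:174298201-174298300, coding exon, largest difference: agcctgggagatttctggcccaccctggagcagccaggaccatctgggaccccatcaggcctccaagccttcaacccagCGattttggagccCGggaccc

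The Nesp tile held 12 CpGs in 100 bp, the first Gnasxl tile 8 and the second 2. ZFP57, a zinc finger protein that keeps methylation on imprinted alleles in the early embryo, binds the methylated letters TGCCGC, so these were searched on both strands (GCGGCA on the other). They occurred in 8 of the 33 cluster tiles that could be tested (24.2%) and in 7.24% of all 114430 tested tiles. The letters hold a CpG themselves, and the shares were not matched for CpG number. Some of the 8 are adjoining tiles at chr2:174299301-174299700, so no enrichment is read from these shares. The next 3 stretches show the letters, in capitals, in the tiles with the most reads at exon 1A, at Gnas exon 1 and at Nesp.

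Exon 1A, chr2:174327872-174327901, in the exon of the non-coding transcript: cagcgcttggcgGCGGCAggcagacgggca

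Gnas exon 1, chr2:174330102-174330131, exon: gcggcggcggcgGCGGCAgcagctcccgcg

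Nesp, chr2:174284871-174284900, coding exon: ccaccgctccgcTGCCGCtgcagcTGCCGC

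The motif tile at exon 1A was methylated at 43.8% in the pooled reads of the controls, that at Nesp at 32.1% and that at Gnas exon 1 at 1.24%. The same letters were thus found at imprinted and at unmethylated promoters, and no binding was measured.

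The libraries held 68126469 to 132488556 CpG calls in controls and 89179413 to 216223892 in EtOH-exposed forebrains, and they also differed in what they covered. For each library the log2 coverage of 6416 MspI fragments relative to the controls was regressed on fragment length, base composition, CpG number and methylation in controls. The term for methylation, called the coverage coefficient here, gives the log2 shift in coverage between fragments with no methylation and fragments with complete methylation. Its values lay between -0.23 and 0.37 in controls and between -2.88 and 0.11 in EtOH-exposed forebrains, where 13 of 16 were below every control. The level at 18544 tiles that were almost unmethylated in these libraries also fell into steps. It was 0.67% to 1.52% in controls and 0.257% to 2.53% under EtOH, and EtOH-exposed forebrains 4, 5 and 6 stood apart at 2.40% to 2.53% with the 3 lowest coefficients. EtOH-exposed 1, 2, 3, 9, 12 and 14 formed another step, below every control, at 0.257% to 0.311%. Results are therefore also given without EtOH-exposed 4, 5 and 6, and with the coefficient as a covariate. They are also given within a library group of the 6 controls and 7 EtOH-exposed forebrains (7, 8, 10, 11, 13, 15 and 16). This group is called of similar level below, with neighbouring values at those tiles at most 1.3 times apart. Its levels still ran from 0.67% to 1.52%. In it, EtOH-exposed 8, 11, 15 and 16 had coefficients below every control (-1.02, -0.72, -0.28 and -0.42). The steps were read from the data, and the labels name no batch.

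In the CpGs used of the Nesp, Gnasxl and exon 1A windows, methylation was lower on average in EtOH-exposed forebrains than in controls. The differences were 16.3, 16.1 and 17.9 percentage points, while Gnas exon 1 was near 1% in both. The Nesp value comes from the coding exon, 443 to 531 bp past the start, and not from the start itself. The level of an embryo is the mean percent methylation over the CpGs of a window that were covered in all 22 forebrains. Where fewer than 3 CpGs were, those covered in at least 5 forebrains per condition were used. The levels by embryo are plotted for the 4 windows.

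**Figure D1:**
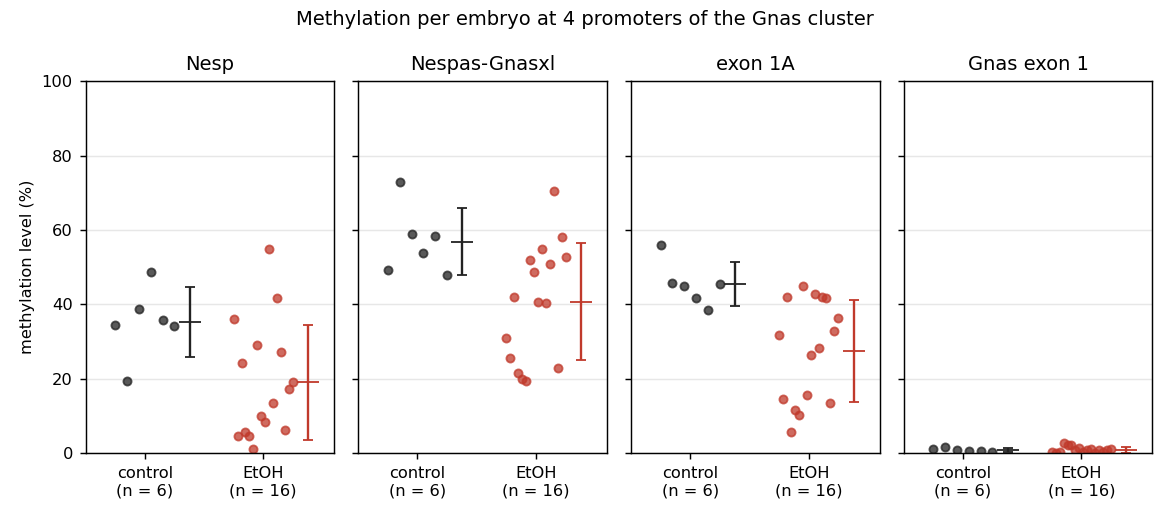
Methylation level (percent, vertical axis) of each embryo at 4 promoter windows, controls in black (n = 6) and EtOH-exposed forebrains in red (n = 16); bars beside the points are mean ± SD. At Nesp, Nespas-Gnasxl and exon 1A, 10, 9 and 11 of the 16 EtOH-exposed forebrains lay below every control, and at Gnas exon 1 every embryo was at 2.67% or below.

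At Nesp, 9 CpGs that lay 443 to 531 bp past the start were covered in all forebrains. Controls ranged from 19.5% through a median of 35.2% to 48.8%, and EtOH-exposed forebrains from 1.24% through 15.4% to 55.0%. The lowest, EtOH-exposed 6, had almost no methylated reads (1.24% of 808 calls, 95% Wilson interval 0.674 to 2.26%), and the highest, EtOH-exposed 10, was above every control (55.0% of 1139 calls, 52.1 to 57.8%). The groups overlapped: 10 EtOH-exposed forebrains were below every control, 5 were within the control range and 1 was above it. The mean was 35.3% ± 9.45 (SD, n = 6) in controls and 19.05% ± 15.5 (n = 16) under EtOH, a difference of -16.3 percentage points (exact permutation test, two-sided, p = 0.0274, adjusted over the 4 promoters p = 0.0401). Such intervals cover counting error only, since PCR copies were not told apart and calls of 1 read at several CpGs are not independent.

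At exon 1A, 10 CpGs just past the start (chr2:174327850-174327949) were covered in all forebrains, with 261 to 4176 calls per embryo. The controls stood close together, from 38.5% through a median of 45.2% to 56.1%. The EtOH-exposed forebrains ranged from 5.75% through 30.1% to 44.9%, with the lowest value in EtOH-exposed 4 (2174 calls, 4.55 to 6.46%). In this window 11 of 16 EtOH-exposed forebrains were below every control, 5 were within the control range and 0 were above it. The mean level was 45.4% ± 5.92 (n = 6) in controls and 27.6% ± 13.7 (n = 16) under EtOH, a difference of -17.9 percentage points (exact permutation test, p = 0.00633, adjusted p = 0.0253).

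In the Nespas-Gnasxl window no CpG was covered in all 22 forebrains, and 12 CpGs around the Gnasxl start (chr2:174297352-174298436) were used, of which an embryo had 5 to 12. Controls ranged from 47.8% through a median of 56.1% to 72.8%, and EtOH-exposed forebrains from 19.4% through 41.4% to 70.5%. Below every control lay 9 EtOH-exposed forebrains, and the other 7 were within the control range. The mean was 56.8% ± 9.04 in controls (n = 6) and 40.7% ± 15.7 under EtOH (n = 16), a difference of -16.1 percentage points (exact permutation test, p = 0.0301, adjusted p = 0.0401). The CpGs averaged differed between embryos: the highest in controls (174298019, 77.9%) had values in 5 controls and 6 EtOH-exposed forebrains. Compared as whole MspI fragments, chr2:174297352-174297430 differed by -18.1 (exact permutation test, p = 0.0512) and chr2:174298166-174298293 by -12.8 (p = 0.0853).

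These 12 CpGs describe the Gnasxl end of the window. Near the Nespas start itself, 11 CpGs upstream of it (chr2:174295482-174295708) reached 10 reads in at least 1 forebrain. They were measured in 1 control and 4 EtOH-exposed forebrains, with 9 or 10 of them in each, too few for a comparison. The pooled level there was 7.22% in control 6 (97 calls, 95% Wilson interval 3.54 to 14.2%). It was 20.4%, 9.36% and 16.2% in EtOH-exposed 4, 5 and 6, and 30.6% in EtOH-exposed 16 (193 calls, 24.5 to 37.4%).

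At Gnas exon 1, 56 CpGs around the start (chr2:174329769-174330922) were used, all below 3% in the controls. Controls ranged from 0.492% through a median of 0.790% to 1.80%, and EtOH-exposed forebrains from 0.206% through 0.899% to 2.67%. The groups overlapped, with 5 EtOH-exposed forebrains below and 3 above every control. The 3 above were EtOH-exposed 4, 5 and 6, the forebrains that also had the highest level at almost unmethylated tiles genome-wide. The 5 below were EtOH-exposed 1, 2, 9, 12 and 14, all from the step with the lowest level at those tiles. The mean was 0.971% ± 0.473 in controls and 1.03% ± 0.790 under EtOH, and the difference of 0.05 percentage points was smaller than the spread between replicates (exact permutation test, p = 0.877).

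The differences at the imprinted promoters were followed in 3 settings that take the libraries into account. Settings that leave out forebrains also have less power. With the coverage coefficient as a covariate the differences became -4.83 percentage points at Nesp (p = 0.402), -1.95 at Nespas-Gnasxl (p = 0.65) and -5.02 at exon 1A (p = 0.106, permutation of residuals). Within the 13 forebrains of similar level at almost unmethylated tiles they were -10.8 (p = 0.153), -2.94 (p = 0.573) and -10.7 (exact permutation test, p = 0.0373, adjusted over the 4 promoters p = 0.149). Without EtOH-exposed 4, 5 and 6 they were -12.8 (p = 0.0758), -11.4 (p = 0.0782) and -13.6 (exact permutation test, p = 0.0139, adjusted p = 0.0556). No promoter passed the test after adjustment in any of these 3 settings. With a minimum of 20 reads per strand the imprinted promoters did not pass either (exact permutation tests, adjusted p = 0.0932 at each). With 1 forebrain left out at a time, the adjusted p stayed under 0.05 in 10 of 22 cases at Nesp (range 0.00944 to 0.103), 8 of 22 at Nespas-Gnasxl (0.0188 to 0.124) and 21 of 22 at exon 1A (0.00944 to 0.0539 by exact permutation, the highest without control 1). Before adjustment the p at Nesp was above 0.05 without control 3 (p = 0.0504) or control 4 (p = 0.0774), and that at Nespas-Gnasxl without control 2 (p = 0.093) or control 3 (exact permutation test, p = 0.0506).

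Across the 16 EtOH-exposed forebrains the level and the coverage coefficient moved together, with Pearson r = 0.76 at Nesp, 0.86 at Nespas-Gnasxl and 0.92 at exon 1A, given as a description because both are read from the same libraries. In the 6 controls r was -0.62, 0.70 and 0.29. The part of coverage in the lower levels was not tested further, and coverage and exposure cannot be told apart where no control shares the low coefficients. Within the cluster, end reads were summed over the 13 fragments at 30 to 80% in controls and over the 5 fragments of Gnas exon 1. The first sum exceeded the second by 1.597 ± 0.342 (SD, n = 6) log2 units in controls and 1.28 ± 0.335 (n = 16) under EtOH (exact permutation test, p = 0.0635). Of the EtOH-exposed forebrains, 6 of 16 were below every control. Part of the excess in both groups comes from the larger number of fragments in the first sum.

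**Figure D2:**
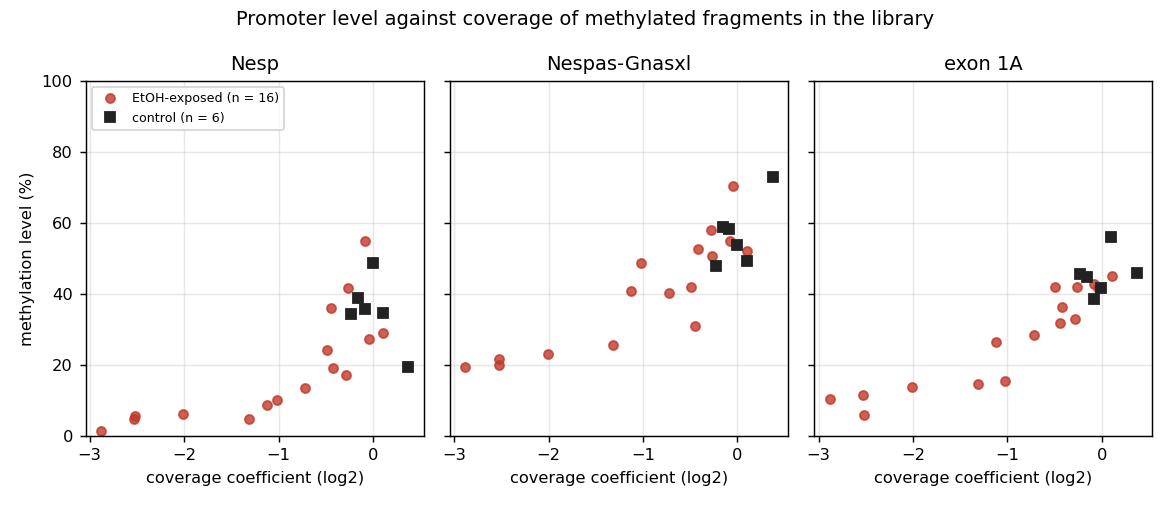
Promoter level of each embryo (percent, vertical axis) against the coverage coefficient of its library (log2 units, horizontal axis) at Nesp, Nespas-Gnasxl and exon 1A, controls as black squares (n = 6) and EtOH-exposed forebrains as red circles (n = 16). The controls sit between -0.23 and 0.37, and the 4 EtOH-exposed forebrains with coefficients between -2.88 and -2.01 have the lowest levels at Nespas-Gnasxl and exon 1A.

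Many of the same forebrains were low in each of the imprinted windows, the Nesp level being that of its coding exon. Reads were not assigned to alleles, so which parental copy had the lower methylation was not measured. At Nesp, Nespas-Gnasxl and exon 1A together, 7 of 16 EtOH-exposed forebrains were below every control, and 12 were below every control at 1 of them or more. Of the 7, EtOH-exposed 6 had 1.24% at Nesp, 19.4% at Nespas-Gnasxl and 10.4% at exon 1A. EtOH-exposed 4 had 5.68%, 21.7% and 5.75% at these promoters. At the other end EtOH-exposed 10 had 55.0%, 54.8% and 42.9%, within or above the control range at each. EtOH-exposed 1 differed between promoters, with 36.1% at Nesp, inside the control range, beside 31.0% at Nespas-Gnasxl and 31.8% at exon 1A, below every control.

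Over the 16 EtOH-exposed forebrains, exon 1A and Nesp levels were correlated with Pearson r = 0.82 (permutation p = 9e-05, adjusted over 4 relations 0.00018) and Spearman rho = 0.91 (permutation p = 1e-05, the smallest these permutations can give). Nespas-Gnasxl and exon 1A gave r = 0.81 (permutation p = 0.00036, adjusted 0.00048) and rho = 0.82 (p = 0.00018). Nespas-Gnasxl and Nesp gave r = 0.61 (permutation p = 0.0128, adjusted 0.0128) and rho = 0.75 (p = 0.00131). With the 2 forebrains farthest from the median left out, r was 0.80, 0.78 and 0.58. Within the 7 EtOH-exposed forebrains of similar level at almost unmethylated tiles, r was 0.71, 0.49 and 0.32, and without EtOH-exposed 4, 5 and 6 the relation of Nespas-Gnasxl and Nesp fell to r = 0.44 (permutation p = 0.137).

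The cluster also moved with imprinted loci elsewhere. These were 18 tiles at 9 imprinted genes with 30 to 70% methylation in controls, whose mean was 49.9% ± 9.42 (n = 6) in controls and 40.9% ± 12.8 (n = 16) under EtOH. The mean of the Nespas-Gnasxl and exon 1A levels was correlated with that mean over the 16 EtOH-exposed forebrains, with r = 0.92 (permutation p = 1e-05, adjusted 4e-05, the raw value being the smallest possible) and rho = 0.91. It was r = 0.89 without the 2 farthest forebrains, 0.85 without EtOH-exposed 4, 5 and 6, and 0.56 within the 7 forebrains of similar level. The library, and with it the coverage coefficient, is shared by all these measures. The mean of the other imprinted loci went with the coefficient at Pearson r = 0.91 in the 16 EtOH-exposed forebrains and 0.95 in the 6 controls. What part of the correlation goes back to coverage was not tested.

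The spread between embryos, as the mean distance from the group median, was 5.84 percentage points in controls and 12.2 under EtOH at Nesp, 6.51 and 12.98 at Nespas-Gnasxl, and 3.71 and 11.8 at exon 1A. The wider spread under EtOH did not pass the test at any of the 3 (exact permutation tests, p = 0.0925, 0.166 and 0.0638, adjusted over 4 promoters 0.185, 0.221 and 0.185). At Gnas exon 1 it was 0.321 and 0.588 (p = 0.277). Without control 2 or control 4 the spread at Nesp passed before adjustment (p = 0.0338 and 0.0307), as did that at exon 1A without control 1 (exact permutation test, p = 0.03). The spread differences of 6.34, 6.47 and 8.07 percentage points at Nesp, Nespas-Gnasxl and exon 1A became 4.23, -0.44 and 3.81 within the 13 forebrains of similar level (exact permutation tests, p = 0.273, 0.935 and 0.411). They were 5.93, 3.96 and 5.48 without EtOH-exposed 4, 5 and 6 (exact permutation tests, p = 0.0984, 0.355 and 0.183).

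In a likelihood-ratio test of pooled reads in 100 bp tiles, with no term for the spread between embryos, 18 of the 33 cluster tiles were lower under EtOH by at least 10 percentage points with q under 0.01, and 0 were higher. Of all 114430 tiles tested, 1.08% were called lower and 0.0516% higher. Among the 5429 tiles at 30 to 70% in controls, 15.05% were called lower. The 33 cluster tiles had a median difference of -11.1 percentage points, against -0.13 for all tiles and -4.25 for those at 30 to 70% in controls. At imprinted genes elsewhere, 23 of 41 tested tiles at 30 to 70% in controls were called lower (56.1%), with a median difference of -11.9. The cluster values, 18 of 33 and -11.1, are over tiles of any control level, among them 8 tiles at Gnas exon 1 near 1%. They are therefore not matched to the sets limited to 30 to 70%.

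The calls covered 5 of 5 tiles in the Nespas-Gnasxl window, 4 of 4 at exon 1A, 1 of 3 at Nesp, 0 of 8 at Gnas exon 1 and 8 of 13 outside the windows. A call needs a fall of at least 10 percentage points. It was therefore not possible at Gnas exon 1 (at most 1.33% in controls) or in the Nesp tile chr2:174284201-174284300 (8.45%). At exon 1A the tile chr2:174327801-174327900 had both the most reads and the largest difference, with pooled levels of 43.8% in controls and 27.2% under EtOH (difference -16.6 percentage points, logistic q = 4.08e-105). The embryos behind it ranged from 37.8% to 55.2% in controls (median 44.6%, n = 6) and from 5.0% to 44.4% under EtOH (median 29.2%, n = 16). At Gnasxl the second tile printed above had 60.1% and 38.9% (difference -21.2, logistic q = 4.78e-32), and the first, with more reads, 73.7% and 54.4% (difference -19.3, logistic q = 2.70e-68).

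The Nesp tile printed above had 32.1% in controls and 19.7% under EtOH (difference -12.4, logistic q = 5.63e-62), with controls from 19.6% to 48.8% (median 35.6%) and EtOH-exposed forebrains from 1.49% to 54.9% (median 15.4%). Outside the windows the largest difference was in the intronic tile chr2:174285601-174285700, between the Nesp coding exon and the next exon, with 45.8% and 25.5% (difference -20.3, logistic q = 7.47e-98). Its embryos overlapped, with 24.0% to 50.3% in controls (n = 5) and 9.63% to 53.5% under EtOH (n = 15), and the unweighted means of 41.6% ± 10.5 and 30.9% ± 14.3 did not differ beyond their spread (exact permutation test, p = 0.142). At Gnas exon 1 the tile with the largest difference, chr2:174330001-174330100, had 1.33% and 0.862% (q = 0.109).

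When the spread between embryos entered the test, 0 of the 33 tiles were called, by an overdispersed logistic model with an F test (smallest q = 0.83) or by limma on log2 ratios (smallest q = 0.994), and 0 of all tiles were. At an unadjusted p under 0.05 stood 9 of 33 cluster tiles with either test, against 5.77% of all tiles by the overdispersed model and 4.45% by limma. Among the tiles at 30 to 70% in controls, a range to which the 33 were not limited, these shares were 14.7% and 13.4%. With the coverage coefficient in the logistic model, 0 cluster tiles were called lower and 2 higher, against 0.0856% and 0.329% of all tiles. Within the 13 forebrains of similar level 5 of 32 cluster tiles were called, all lower, against 0.788% of all tiles called lower, and without EtOH-exposed 4, 5 and 6 it was 10 of 33, all lower, against 0.329%.

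Methylation was uneven along the cluster, as the plot of its 21 MspI fragments with values in at least 5 forebrains per condition shows. They are numbered from 1 to 21 in the direction of Gnas transcription.

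**Figure D3:**
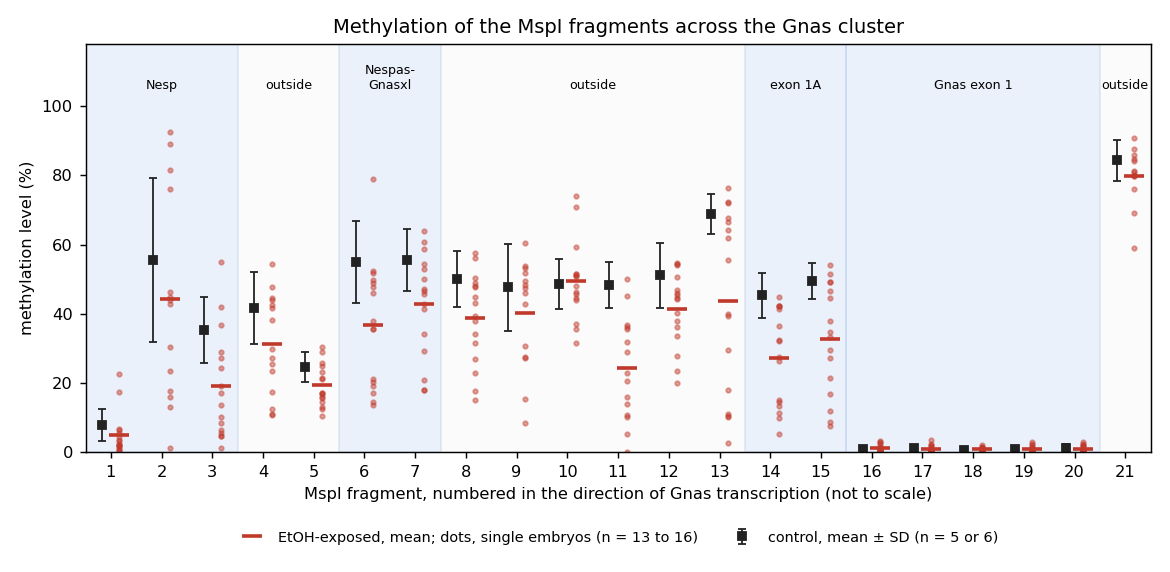
Methylation level (percent, vertical axis) of 21 MspI fragments in order along the Gnas cluster (horizontal axis, not to scale), with controls as black squares (mean ± SD, n = 5 or 6) and EtOH-exposed forebrains as red dots with a bar at the mean (n = 13 to 16); shaded blocks are the promoter windows. Controls sit at 7.93% at fragment 1, between 24.6% and 68.9% at fragments 2 to 15, near 1% at fragments 16 to 20 and at 84.3% at fragment 21.

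Just before the Nesp start, fragment 1 (chr2:174284177-174284270) was methylated at 7.93% ± 4.64 in controls (n = 5) and 5.09% ± 6.20 under EtOH (n = 16, exact permutation test, p = 0.379). Past the start, fragment 3 (432 to 531 bp) had 35.3% ± 9.45 in controls (n = 6), and it holds all CpGs of the Nesp level given above. Fragment 2, which ends where fragment 3 begins, had 55.5% ± 23.6 (n = 5), with controls from 31.4% to 87.1%, the widest control range in the cluster. The CpG with the lowest control mean in the Nesp window was at 174284225 (6.90% ± 4.92, n = 5), upstream of the start, and that with the highest was at 174284727 (56.6% ± 25.7, n = 5), in the coding exon.

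In the Nespas-Gnasxl window the control means of the 12 CpGs ran from 47.5% ± 10.7 (n = 6) at 174298436 to 77.9% ± 13.5 (n = 5) at 174298019. At exon 1A, 19 CpGs covered in at least 5 forebrains per condition ran from 32.7% ± 16.01 (n = 6) at 174328544 to 52.3% ± 6.86 (n = 5) at 174328405. Gnas exon 1 had its highest CpG at 174330158, with 2.98% ± 1.67 (n = 5). The lowest, with 0% in 5 controls, were 174329799, 174329823 and 174330289. Under EtOH these had 1.87% ± 2.22, 0.71% ± 1.75 and 1.31% ± 1.28 (n = 16).

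Counted over single CpGs, the mean was lower under EtOH at 23 of 23 CpGs in the Nesp window, 12 of 12 in the Nespas-Gnasxl window, 19 of 19 at exon 1A, 57 of 61 outside the windows and 22 of 56 at Gnas exon 1. Over the genome 56.2% of all tested tiles were lower under EtOH, and 84.5% of the tiles at 30 to 70% in controls. These shares are over 100 bp tiles by pooled reads, while the CpG counts compare unweighted means of embryos, so the measures differ. The CpGs share reads and libraries and are not separate measurements. The median difference was -11.8 percentage points at Nesp, -16.6 at Nespas-Gnasxl, -17.6 at exon 1A, -10.3 outside the windows and 0.15 at Gnas exon 1. In the gene body past exon 1 a single fragment, number 21, was measured, with 84.3% ± 5.85 in controls (n = 5) and 79.98% ± 8.27 under EtOH (n = 13), and no tile was tested between 174300600 and 174327801.

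Of the 13 fragments at 30 to 80% in controls, 12 had a lower mean under EtOH, beside the 84.5% of tiles at 30 to 70% in controls that were lower genome-wide, and the differences ran from -25.3 to 0.81 percentage points with a median of -12.8. For 4 of them the exact permutation p was under 0.05, and for 0 after adjustment over the 21 fragments. Among tiles at 30 to 70% in controls genome-wide, 14.7% had an unadjusted p under 0.05 by the overdispersed model and 13.4% by limma. The smallest values were those of fragment 11 in the Gnasxl coding exon (p = 0.00316, adjusted p = 0.0664) and fragment 14 at exon 1A (exact permutation test, p = 0.00635, adjusted p = 0.0667). Fragment 14 holds the 10 CpGs of the exon 1A level given above and is not a separate measurement. The largest difference was at fragment 13, 2614 to 2708 bp past the Gnasxl start, with 68.9% ± 5.76 in controls (n = 5) and 43.6% ± 26.5 under EtOH (n = 16, p = 0.0501 by exact permutation). There EtOH-exposed forebrains ranged from 2.75% to 76.5%, with 10 of 16 below every control.

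Fragments 10 and 11, 64 bp apart inside the Gnasxl coding exon, differed from each other by more under EtOH than in controls. They were singled out after their values were seen, as the pair with the largest change among 10 pairs of neighbouring fragments within 1000 bp. Their sequences follow, plus strand, with each CpG in capitals and the CpG of the MspI site at both ends.

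Fragment 10, chr2:174299355-174299429: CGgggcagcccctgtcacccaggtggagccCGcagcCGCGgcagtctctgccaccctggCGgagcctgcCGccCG

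Fragment 11, chr2:174299492-174299654: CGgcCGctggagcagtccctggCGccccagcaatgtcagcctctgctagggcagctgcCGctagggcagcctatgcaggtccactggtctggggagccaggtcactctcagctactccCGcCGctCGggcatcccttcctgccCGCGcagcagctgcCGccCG

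In controls fragment 10 was at 48.7% ± 7.13 (n = 5, 37.4% to 56.9%) and under EtOH at 49.5% ± 11.7 (n = 15, 31.5% to 74.1%). Fragment 11 was at 48.3% ± 6.64 in controls (n = 5, 41.8% to 58.0%) and at 24.3% ± 14.99 under EtOH (n = 15, 0% to 50.1%), with 13 of 15 EtOH-exposed forebrains below every control. EtOH-exposed 4, 5 and 6, low at the promoters, had 48.0%, 45.8% and 46.4% at fragment 10 beside 15.9%, 13.9% and 20.7% at fragment 11. These levels rested on 40 to 63 reads at the ends of fragment 10, fewer than at fragment 11 in each of the 3. The fragment just before fragment 10 (chr2:174299142-174299355) reached 10 reads in 1 control, at 39.0%, and in 7 EtOH-exposed forebrains, from 7.19% through a median of 19.3% to 49.1%, with 13.6%, 13.98% and 7.19% in EtOH-exposed 4, 5 and 6. The tile chr2:174299301-174299400, 1 of the 18 called lower, covers the end of that preceding fragment and the first part of fragment 10, and had pooled levels of 47.9% in controls and 36.8% under EtOH.

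**Figure D4:**
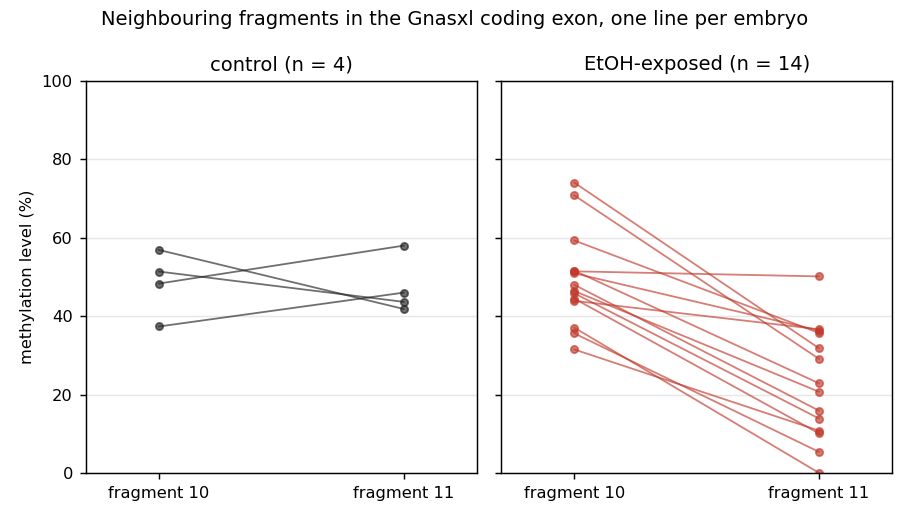
Methylation level (percent, vertical axis) of fragments 10 and 11 in the Gnasxl coding exon, each line joining the values of 1 embryo, for the 4 controls (left) and 14 EtOH-exposed forebrains (right) with both values. The lines of the EtOH-exposed forebrains all run down to fragment 11, and 2 of the 4 control lines do.

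Within an embryo, the level of fragment 11 minus that of fragment 10 ranged from -15.1 through a median of 0.45 to 9.68 percentage points in 4 controls, and from -42.3 through -29.5 to -1.29 in 14 EtOH-exposed forebrains. Some of these values rest on few reads. The highest control value is that of control 1, with 10 end reads at fragment 11. The lowest value under EtOH is that of EtOH-exposed 10, with 24 end reads at fragment 10. Controls 3 and 4 had 24 and 31 end reads at fragment 10. Fragment 11 was the lower of the pair in 14 of 14 EtOH-exposed forebrains and in 2 of 4 controls, and 11 of 14 were below every control. The contrast differed by -25.4 percentage points between the conditions (exact permutation test, p = 0.00327, adjusted over the 10 pairs p = 0.0327). It was -22.8 with the coverage coefficient as a covariate (permutation p = 0.00824, adjusted over the 10 pairs p = 0.0824), -29.1 in the 4 controls and 5 EtOH-exposed forebrains of similar level that had both values (exact permutation test, p = 0.0238, adjusted p = 0.101) and -24.5 without EtOH-exposed 4, 5 and 6 (exact permutation test, p = 0.0103, adjusted p = 0.103). It kept its direction in these settings and did not pass after adjustment. Fragment 10 runs 73 bp from one MspI site to the next and holds 7 CpGs with those of both sites, and fragment 11 runs 161 bp and holds 11, and the part of fragment length in the contrast was not tested.

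The other 9 pairs had an adjusted p of 0.152 or more over all forebrains. Fragments 11 and 12 came next, with a contrast of 15.8 percentage points (exact permutation test, p = 0.0304, adjusted p = 0.152). Within the forebrains of similar level, fragments 8 and 9 had a smaller p (contrast 12.7, exact permutation test, p = 0.00794, adjusted p = 0.0794) than fragments 10 and 11. At exon 1A, fragment 15 was higher than fragment 14 by 4.01 ± 8.48 percentage points in controls (n = 5) and by 5.45 ± 5.85 under EtOH (n = 16).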

How the data were processed

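RRBS libraries of 22 E10.5 forebrains, 6 control and 16 EtOH-exposed with 1 embryo each, were compared as labelled. The deposited counts give, per strand and without normalization, how many reads the authors' pipeline placed on a CpG cytosine. The deposited percent values are the shares of those reads called methylated or unmethylated. Trim Galore 0.3.3, BSMAP 2.90 and mm10 are named in the submitters' processing notes. All 2809601 autosomal positions checked fell on CpGs in GRCm38. Methylated reads were coverage multiplied by percent, rounded. PCR copies were not removed in any step described in the methods, which limits what read depth says about precision.

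CpGs were kept on a strand with at least 10 reads, and kept strands were added up. Tiles of 100 bp needed at least 2 CpGs and 5 samples per condition, and were tested on chromosomes 1 to 19 with a logistic likelihood-ratio test, Benjamini-Hochberg adjustment, q under 0.01 and a pooled difference of at least 10 percentage points. Embryo levels were compared with two-sided exact permutation tests over 74613 choices of 6 from 22, and correlations used 100000 permutations. Tools were Python 3.11.15, scipy 1.17.1 and limma 3.58.1 in R 4.3.3. Alternatives were other coverage minima, windows, CpG sets, weights, covariates and sample sets, and the closing section gives their effect. The sets without EtOH-exposed 4, 5 and 6, the unblocked 12 samples and the contrast of fragments 10 and 11 with its alternatives were added after seeing the data. Named tiles were those with the largest difference and the most reads in each window and the largest difference outside, and named CpGs those with the highest and lowest control mean in each window. The members, windows, lists and tests were chosen with earlier results of these data known.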

Additional observations from a re-analysis of the deposited data

How the results depend on the processing

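The differences at Nesp, Nespas-Gnasxl and exon 1A were negative under every alternative run. With a minimum of 20 reads per strand, which changes the CpGs used, they were -14.8, -16.6 and -12.6 percentage points and lost their calls (exact permutation tests, unadjusted p = 0.0556, 0.0614 and 0.0699). The adjusted p at Nesp and Nespas-Gnasxl rose to 0.0558 and 0.0599 with strands added before the minimum, and to 0.0576 and 0.0595 without CCGG sites. With the coverage coefficient as a covariate they were -4.83, -1.95 and -5.02 without a call, and the difference at Gnas exon 1 turned to -0.41. In the library group of 13 forebrains Nesp (-10.8) and Nespas-Gnasxl (-2.94) lost their calls, exon 1A (-10.7) had an adjusted p of 0.149, and the spread difference fell to 3.81 at exon 1A and turned to -0.44 at Nespas-Gnasxl and -0.16 at Gnas exon 1. Without EtOH-exposed 4, 5 and 6, Nesp (-12.8) and Nespas-Gnasxl (-11.4) lost their calls, exon 1A (-13.6) had an adjusted p of 0.0556, Gnas exon 1 turned to -0.26 and the correlation of Nespas-Gnasxl and Nesp (r = 0.44) lost its call. The cause was not tested.

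Leaving out 1 forebrain at a time gave differences of -19.4 to -13.6 at Nesp, -18.1 to -12.9 at Nespas-Gnasxl, -19.2 to -15.7 at exon 1A and -0.0556 to 0.219 at Gnas exon 1, and spread differences of 4.39 to 8.44 at Nesp, 5.35 to 8.98 at Nespas-Gnasxl, 7.11 to 9.56 at exon 1A and 0.19 to 0.41 at Gnas exon 1.

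The 18 called tiles became 0 with an overdispersed F test or limma, 2 (higher) with the coefficient, 5 in the library group, 10 without EtOH-exposed 4, 5 and 6, 7 of 12 tested with all 22 samples (0.575% of all tiles called lower) and 28 of 47 with 3 samples per condition (2.43%). Replicate numbers are shared between groups, but deviations of same-numbered samples correlated at only -0.15 to 0.17 and 1 of 6 matched its own number best, so they share only a number. With a replicate block on samples 1 to 6, which include EtOH-exposed 4, 5 and 6, 32 of 47 tiles were called (5.21% of all tiles were called lower), as without the block on the same samples (32, and 5.55%). The differences were -22.5 at Nesp (p = 0.0625), -30.2 at Nespas-Gnasxl and -26.1 at exon 1A (exact sign-flip tests, p = 0.0312, the smallest possible, adjusted over the 4 promoters 0.0625). The restriction to CpGs at 30 to 70% in controls left none at Gnas exon 1.

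Coverage limits the Nespas start and the Nespas-Gnasxl window, where control 6 had 5 of 12 CpGs. The start was measured in the 5 libraries with the most covered positions (3145574 to 4196496), among them control 6 with the fewest CpG calls of all 22 (68126469).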
